A study of Mus musculus with 4 samples.

Results

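The 9 genes of B cell identity and antigen receptor signalling described here were read in RNA sequencing of macrophage preparations from murine neuroblastoma. The genes were *Cd79a*, *Cd79b*, *Ms4a1*, *Cd22*, *Cr2*, *Blk*, *Bank1*, *Pax5* and *Pou2af1*, chosen by symbol, and all 9 were among the 54532 genes of the deposited count table. Mice on a C57BL/6 background were injected with 4000000 cells of NB9464, a MYCN-amplified murine neuroblastoma line, and received no treatment. On day 40, tumor-associated macrophages (TAMs) were pulled from the tumors by their CD11b and F4/80 surface proteins on magnetic beads. The methods give an age of 4 to 6 weeks at injection, for the Syk strain as for purchased C57BL/6 mice. There were 2 libraries labelled SYK WT (M7 and M8) and 2 labelled SYK KO (M9 and M10). SYK KO mice carry floxed *Syk* and Cre recombinase driven by the lysozyme M promoter, which is active in myeloid cells. Whether the SYK WT mice carried the floxed allele or Cre is not given in the sources used here. The labels also name bone marrow-derived macrophages as the RNA source in one line and adoptive transfer in the series title, and nothing says whether each library came from 1 mouse or a pool.

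B cells sense antigen through a surface immunoglobulin held in a complex with CD79A and CD79B. When antigen binds, Src family kinases phosphorylate a pair of tyrosines in the tail of each CD79 chain, the kinase Syk docks on them, and the signal passes through the adaptor BLNK to Btk and phospholipase C gamma 2. CD22 counters this signal, CR2 lowers its threshold through complement, and Pax5 is the transcription factor that fixes B cell identity. Several of the downstream genes, *Syk* among them, are also used by macrophages, and Fc receptors there signal through the same type of tyrosine pair.

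The counts of *Cd79b* differed most within the list, while those of its partner *Cd79a* differed less. For this reason, and because it is the site where Syk acts in B cells, the tyrosine pair of the CD79 chains is shown. It was located in the longest annotated coding sequence of each gene as a tyrosine codon (TAT or TAC), 2 codons of any kind, a leucine or isoleucine codon, 6 to 8 codons and the same arrangement again. Each was matched once, and 2.89% of 21562 coding genes held such a match anywhere. Tyrosine codons are in capitals. On GRCm38 the *Cd79a* site lies in exons 4 (chr7:24901296-24901301, plus strand) and 5 (chr7:24901431-24901469), and the *Cd79b* site in exons 5 (chr11:106312007-106312012, minus strand) and 6 (chr11:106311867-106311905). The stretches are 45 bases long and identical at 31 bases.
Cd79a: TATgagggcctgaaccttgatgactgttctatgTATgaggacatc
Cd79b: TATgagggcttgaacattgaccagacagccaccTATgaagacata

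CD22 carries tyrosines of the opposite kind, which recruit the phosphatase SHP-1. In *Cd22* the pattern of an isoleucine, valine or leucine codon, 1 codon, a tyrosine codon, 2 codons and a leucine or valine codon was matched at 4 places, a pattern held by 33.7% of coding genes. The last 3 matches are shown, since the tail of CD22 is at the end of the protein. They lie on chromosome 7, minus strand, at chr7:30867494-30867511 in exon 12 and at chr7:30866600-30866617 and chr7:30866540-30866557 in exon 14.
Cd22 codon 783: gttagtTATgccatcttg
Cd22 codon 843: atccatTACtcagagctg
Cd22 codon 863: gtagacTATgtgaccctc

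The libraries labelled SYK KO held more RNA of leukocytes in general. *Syk* itself had 765 and 569 counts in M7 and M8 and 4033 and 2944 in M9 and M10, so the targeted gene was more abundant where it should be deleted, and SYK WT and SYK KO below name labels only. Depth was similar, from 20755886 to 23518045 counts per library. Summed over 10 macrophage markers, the level was 916 to 1306 counts per 1000000 (CPM) after TMM normalization in the SYK WT libraries and 6345 to 10398 CPM in the SYK KO libraries, and 8 fibroblast markers summed to 12558 to 14454 CPM and 4058 to 4959 CPM. None of these 18 markers was at 0 in any library. Mitochondrial genes took 2.20% to 2.34% of counts in SYK WT and 6.00% to 15.9% in SYK KO libraries. In bulk RNA, fewer cells of a type and less RNA per cell cannot be told apart. The part of these differences in the results below was not tested beyond the scalings given.

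Few of the 9 genes were abundant. *Blk*, a Src family kinase of B cells, had 0 counts in every library, which allows at most 0.109 to 0.163 CPM (3 counts, counting error only). By edgeR's quasi-likelihood test, 3 of the 9 genes (*Cd79b*, *Cd22* and *Bank1*) were higher in SYK KO libraries with an adjusted p under 0.05 and 0 were lower. The other tested genes, *Cd79a*, *Ms4a1* and *Pax5*, did not pass, and *Cr2*, *Pou2af1* and *Blk* were under the expression filter. Of the 16451 genes tested, 22.7% were called higher and 16.7% lower. At an unadjusted p under 0.05, 0 of the 9 genes were lower as well. DESeq2 called 3 of the 9 higher and 0 lower, against 19.0% and 15.3% of all genes, and 0 were lower at an unadjusted p under 0.05. A two-sided exact permutation test of 2 against 2 libraries cannot go below p = 0.333, so none was run on single genes.

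**Figure D1:**
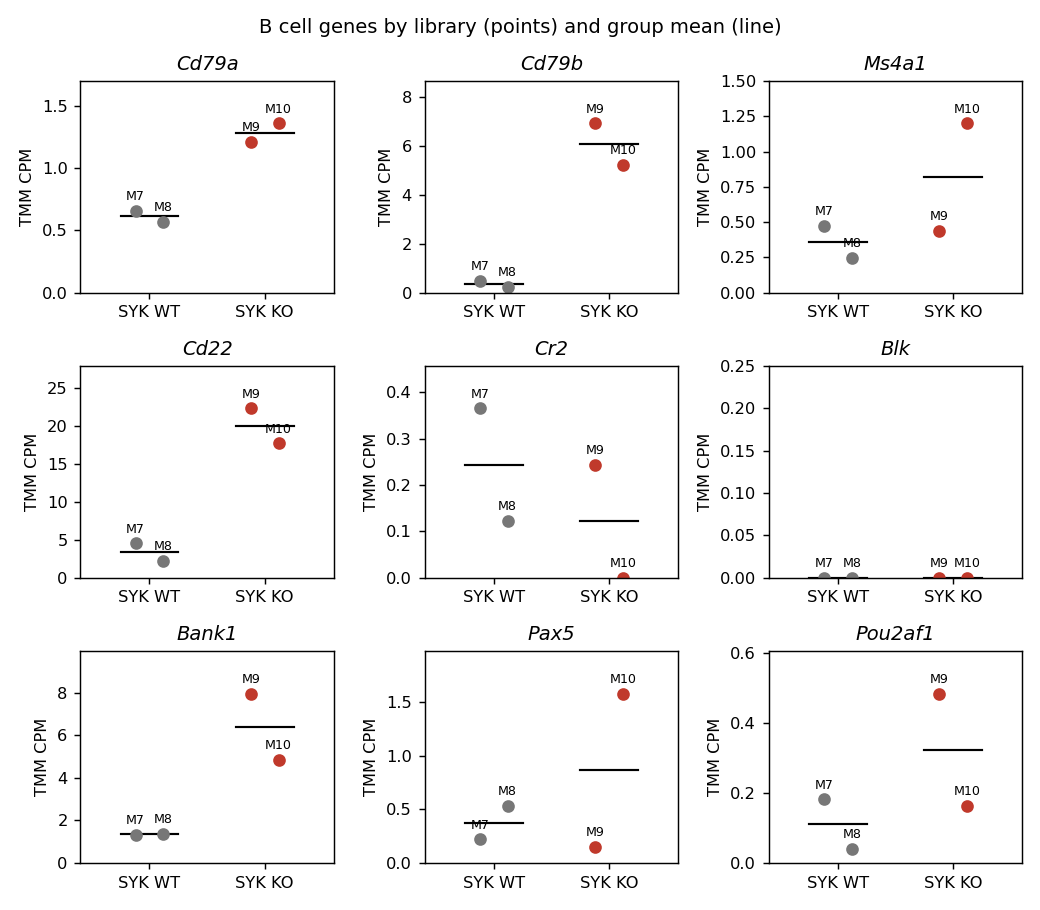
Each panel plots 1 gene, with the TMM-normalized CPM of each library as a point (grey, SYK WT; red, SYK KO) and the mean of 2 libraries as a line, on axes that start at 0 and differ between panels. *Cd79a*, *Cd79b*, *Cd22* and *Bank1* did not overlap between groups, whereas *Ms4a1*, *Cr2*, *Pax5* and *Pou2af1* did and *Blk* was at 0 throughout.

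Of the chains that carry the receptor's signal, *Cd79b* differed most. It lies on chromosome 11 (106311341 to 106314762, minus strand) and had 13, 6, 143 and 96 counts in M7, M8, M9 and M10. Its level was 0.359 ± 0.162 CPM (SD, n = 2) in SYK WT and 6.09 ± 1.21 CPM (SD, n = 2) in SYK KO libraries. The log2 fold change was 4.05 (SE 0.542, edgeR adjusted p = 0.00300). Both SYK KO libraries were far above both SYK WT libraries. Since 1 SYK WT and 2 SYK KO libraries reached the filter's minimum, *Cd79b* was tested because of its level in the SYK KO libraries.

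*Cd79a*, its obligate partner on chromosome 7 (24897381 to 24902197, plus strand), had 18, 14, 25 and 25 counts. Its level was 0.613 ± 0.0612 CPM (SD, n = 2) in SYK WT and 1.29 ± 0.105 CPM (SD, n = 2) in SYK KO libraries, and the log2 fold change of 1.06 (SE 0.601) did not pass the threshold (edgeR adjusted p = 0.202). The groups did not overlap, which was so for *Cd79a* and 3 further genes of the list, while 38.0% of all genes tested lay without overlap in this direction and 37.2% in the other, in which none of the 6 tested genes of the list lay.

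The share of *Cd79b* in the counts of the pair does not depend on how libraries are scaled. It was 41.9% of 31 counts in M7 (95% exact Clopper-Pearson interval 24.5% to 60.9%), 30.0% of 20 in M8 (11.9% to 54.3%), 85.1% of 168 in M9 (78.8% to 90.1%) and 79.3% of 121 in M10 (71.0% to 86.2%). These intervals cover counting error only, and the ratio was chosen after the counts were seen. Per base of exon, *Cd79b* was 0.735 and 0.436 times *Cd79a* in M7 and M8 and 5.82 and 3.91 times *Cd79a* in M9 and M10. The intervals did not overlap between groups. Those of the SYK WT libraries include equal counts of the chains, and those of the SYK KO libraries lie wholly on the side of *Cd79b*.

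**Figure D2:**
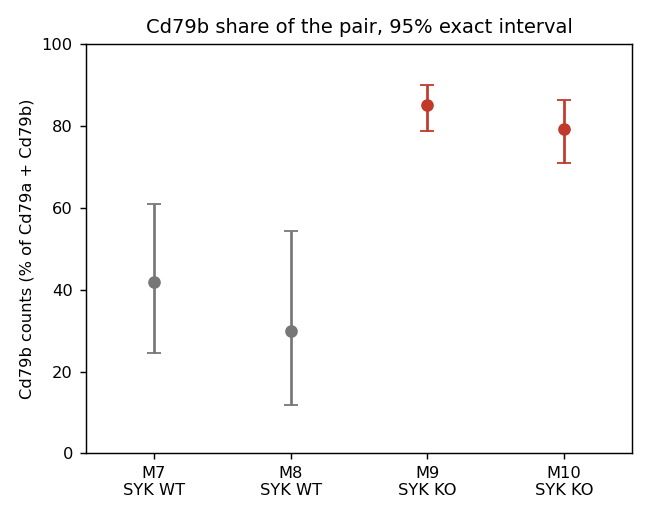
The vertical axis is the share of *Cd79b* in the summed counts of *Cd79a* and *Cd79b*, in percent, for each library, with bars for the 95% exact binomial interval. The SYK WT libraries (grey) were at 41.9% and 30.0% and the SYK KO libraries (red) at 85.1% and 79.3%.

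The immunoglobulin genes that the CD79 chains serve were looked up beside them after the counts were seen. *Ighm*, the heavy chain of IgM, had 88, 88, 1275 and 957 counts. Its level was 3.39 ± 0.264 CPM (SD, n = 2) in SYK WT and in SYK KO libraries 57.0 ± 6.90 CPM (SD, n = 2). Its log2 fold change was 4.07 (SE 0.204, edgeR adjusted p = 0.000486). *Igkc*, the kappa light chain constant region, had 7, 5, 264 and 217 counts and a log2 fold change of 5.71 (SE 0.401, edgeR adjusted p = 0.000674). *Igkc* was tested because of its level in the SYK KO libraries, since 0 SYK WT libraries reached the filter's minimum. Scaled to the macrophage markers, *Ighm* was at 1.29 (edgeR adjusted p = 0.0311) and *Igkc* at 3.02 (edgeR adjusted p = 0.00233). Scaled to the pan-leukocyte genes, *Ighm* was at 0.86 and did not pass (edgeR adjusted p = 0.0584), and *Igkc* was at 2.56 (edgeR adjusted p = 0.00486). *Ighd*, also looked up, had 2, 2, 14 and 13 counts and likewise passed the filter only through the SYK KO libraries. It was at least 6.0-fold higher there (edgeR adjusted p = 0.0292). Under these scalings *Ighd* was at 0.44 and -0.01 and passed under neither (edgeR adjusted p = 0.785 and 0.994).

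Among the surface receptors, *Cd22* was the most abundant by counts. This inhibitory lectin, on chromosome 7 (30865402 to 30880342, minus strand), had 124, 54, 459 and 325 counts in M7 to M10. Its level was 4.52 and 2.20 CPM in the SYK WT libraries (SD 1.64) and 22.3 and 17.7 CPM in the SYK KO libraries (SD 3.23). The log2 fold change was 2.57 (SE 0.388, edgeR adjusted p = 0.00443). Both SYK KO libraries were above both SYK WT libraries. *Gm29439*, annotated on the opposite strand, had 0, 3, 0 and 0 counts.

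Relative to macrophage RNA, *Cd22* was not higher. Divided by the summed counts of the 10 macrophage markers and given as CPM of that sum, it was at 3463, 2401, 2143 and 2791 in M7, M8, M9 and M10, and the groups overlapped. With the libraries scaled to the geometric mean of those markers its log2 fold change was -0.11 (SE 0.657, edgeR adjusted p = 0.871). On the first of these scales *Cd79b* was at 363, 267, 668 and 824, higher in both SYK KO libraries, and *Cd79a* at 503, 623, 117 and 215, lower in both.

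*Ms4a1*, which encodes CD20, the target of B cell depleting antibodies, had 13, 6, 9 and 22 counts. M9 lay between the SYK WT libraries and M10 above them. The log2 fold change of 1.16 (SE 0.828) did not pass the threshold (edgeR adjusted p = 0.302). The antisense gene *4930526L06Rik* overlaps *Ms4a1* and had 6, 6, 0 and 2 counts, and without knowing whether counting used strand the reads of such partners cannot be told apart.

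*Cr2*, a complement receptor of B cells, had 10, 3, 5 and 0 counts and was not tested. Summed over libraries, its normalized ratio of SYK KO to SYK WT was 0.514, with a 95% exact counting interval of 0.143 to 1.53, so no difference was detectable at this depth. *Cr2* was the 1 gene of the list with a ratio under 1.

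*Bank1* encodes an adaptor that links the B cell receptor to Src family kinases and calcium release. It had 36, 34, 164 and 89 counts, and its level was 1.35 ± 0.0503 CPM (SD, n = 2) in SYK WT and 6.41 ± 2.20 CPM (SD, n = 2) in SYK KO libraries. The log2 fold change was 2.25 (SE 0.439, edgeR adjusted p = 0.0101), with no overlap between groups. The call was lost without M7 (adjusted p = 0.0656) or without M8 (0.0749), while the log2 fold change was 2.21 and 2.27.

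The transcription factor genes were scarce and overlapped between groups. *Pax5*, on chromosome 4 (44524757 to 44710487, minus strand), had 6, 13, 3 and 29 counts, with M9 below and M10 above both SYK WT libraries. Its log2 fold change of 1.19 (SE 1.13, edgeR adjusted p = 0.436) rested on M10. Without M10 it was -1.31 (adjusted p = 0.375), and without M9 it was 1.99 and passed the threshold (adjusted p = 0.0331). With 1 library left in a group, that library is assumed to vary like the other group. *Pou2af1*, a coactivator of octamer-binding factors in B cells, had 5, 1, 10 and 3 counts and was not tested, with a summed normalized ratio of 2.89 (95% exact counting interval 1.03 to 9.28) and overlapping groups.

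To compare the genes with each other, counts were divided by exon length and expressed as transcripts per 1000000 (TPM). In M7 and M8 the order began with *Cd22* (3.58 and 1.68 TPM) and *Cd79a* (1.80 and 1.5 TPM), whose ranges overlapped, followed by *Cd79b* (1.32 and 0.656 TPM) and *Bank1* (0.701 and 0.711 TPM), whose ranges also overlapped. In M9 and M10 it began with *Cd79b* (10.7 and 6.05 TPM) and *Cd22* (9.72 and 5.81 TPM), which overlapped, followed by *Bank1* (2.34 and 1.07 TPM) and *Cd79a* (1.83 and 1.55 TPM), which overlapped too. *Ms4a1*, *Pax5*, *Pou2af1* and *Cr2* were under 0.5 TPM in every library. The order depended on the length used. By the longest transcript, *Cd22* (9.81 and 6.19 TPM) came before *Cd79b* (8.49 and 5.08 TPM) in M9 and M10. *Bank1* (3.29 and 1.59 TPM) then lay above *Cd79a* (1.46 and 1.3 TPM) without overlap, and *Ms4a1* reached 0.541 TPM in M10. In M7 and M8, *Cd22* (3.51 and 1.65 TPM) no longer overlapped *Cd79a* (1.39 and 1.17 TPM).

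Other genes used as B cell markers gave a mixed picture, and 1 of them, *Ly6d*, was also listed for plasmacytoid dendritic cells. Whether their RNA came from B cells was not tested. Of these 16 genes, 9 were tested, 5 were called higher and 0 lower, against 22.7% and 16.7% of all genes tested. Their median log2 fold change was 2.50, against 0.02 over all genes tested. At an unadjusted p under 0.05, edgeR gave 0 and DESeq2 gave 1 lower. *Pou2f2*, which encodes the octamer-binding factor Oct-2 and partners with *Pou2af1*, was at 2.90 ± 0.482 CPM (SD, n = 2) in SYK WT and at 79.3 ± 21.4 CPM (SD, n = 2) in SYK KO libraries. It rose by 4.76 on the log2 scale (SE 0.278, edgeR adjusted p = 0.000486). The tetraspanin gene *Cd37* rose by a log2 fold change of 3.0, the lectin gene *Cd72* by 2.91 and *Ly6d* by 2.50 (edgeR adjusted p = 0.000705, 0.00265 and 0.0320). *Ly6d* was 1 of 2 called genes of that list that passed the filter only through the SYK KO libraries. Scaled to the macrophage markers, 1 of the 9 tested genes was called higher and 2 lower, against 0.808% and 86.5% of all genes tested. On that scale *Cd37* (0.27), *Cd72* (0.19) and *Ly6d* (-0.15) did not pass.

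The early B cell factor *Ebf1* had 158, 272, 51 and 100 counts and missed the threshold at a log2 fold change of -1.09 (edgeR adjusted p = 0.134), and *Ralgps2* had a log2 fold change of -0.47 (edgeR adjusted p = 0.144). *Bcl11a* (1.62) and *Tnfrsf13c*, the receptor for the survival factor BAFF (1.75), did not pass either. The other 7 genes of that list were under the filter.

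Genes of receptor signalling listed as shared with other leukocytes were called higher almost throughout. Of 21 tested, 18 were higher and 0 lower, also at an unadjusted p under 0.05. Of all genes tested, 22.7% were called higher and 16.7% lower. Scaled to the macrophage markers, 1 of the 21 was higher and 9 lower, where 0.808% of all genes tested were called higher and 86.5% lower. Scaled to the pan-leukocyte genes, 0 were higher and 9 lower, where the shares of all genes were 0.565% and 90.4%. With TMM the median log2 fold change was 2.77. DESeq2 called 16 higher and 0 lower, against 19.0% and 15.3% of all genes. *Ptpn6*, which encodes SHP-1, rose by a log2 fold change of 3.32, the adaptor genes *Blnk* and *Pik3ap1* by 3.75 and 3.40, and *Syk* by 2.80 (edgeR adjusted p = 0.000486, 0.000626, 0.000626 and 0.000674). Those not called were *Nfatc1* (0.47), *Rasgrp3* (-0.45) and *Siglecg* (-0.43), the last an inhibitory lectin of B cells related to *Cd22*.

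Genes for B cell survival and recruitment were called higher in 7 of 8 cases and lower in 0, against 22.7% and 16.7% of all genes tested. The median log2 fold change was 2.64. At an unadjusted p under 0.05, 1 was lower by edgeR and 1 by DESeq2, which called 7 higher. The chemokine receptor gene *Ccr7* rose by a log2 fold change of 3.39, the TACI receptor gene *Tnfrsf13b* by 3.04, *Cd40* by 3.27 and the APRIL gene *Tnfsf13* by 2.23 (edgeR adjusted p = 0.000941, 0.00340, 0.00397 and 0.00488). The stromal chemokine gene *Cxcl12* had a log2 fold change of -0.81 (edgeR adjusted p = 0.0610). Scaled to the macrophage markers or the pan-leukocyte genes, 0 of the 8 were higher and 1, *Cxcl12*, was lower. Of 6 germinal centre genes, 3 were tested and 0 were called, by edgeR or DESeq2, also at an unadjusted p under 0.05. *S1pr2* was at 0.13, *Bcl6* at 0.03 and *Mef2b* at -1.06 on the log2 scale, and *Gcsam* had 2, 2, 5 and 8 counts. Under the macrophage and pan-leukocyte scalings all 3 tested genes were called lower, *S1pr2* at -2.67 and -3.10, *Bcl6* at -2.72 and -3.16 and *Mef2b* at -3.79 and -4.22. Of all genes tested, 86.5% and 90.4% were called lower under these scalings, with medians of -2.72 and -3.17.

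**Figure D3:**
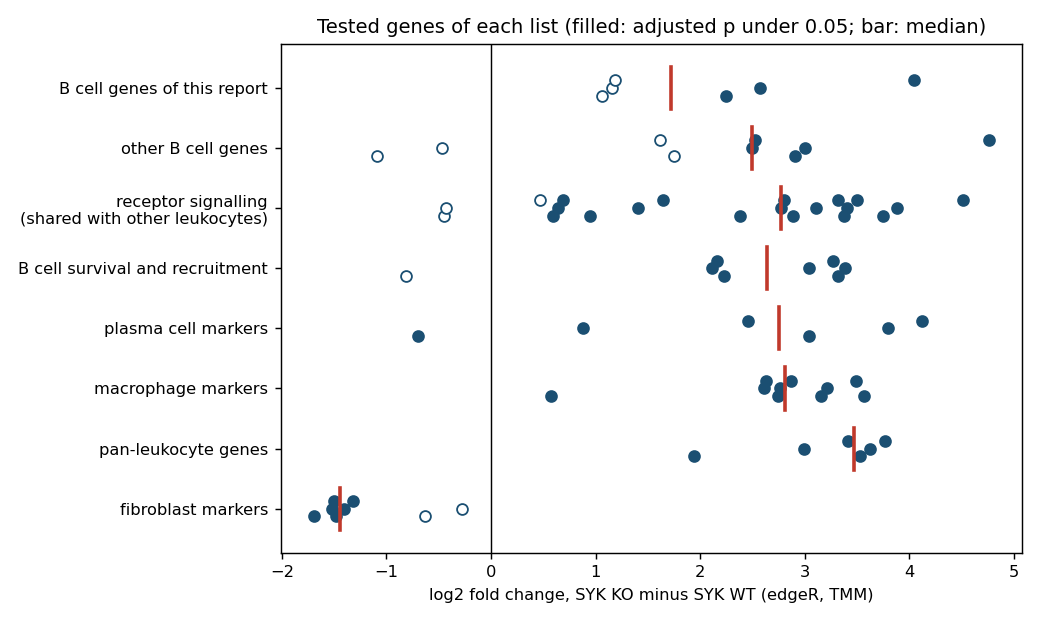
The horizontal axis is the log2 fold change of SYK KO minus SYK WT with TMM normalization, and each point is 1 tested gene of the list named at the left, filled where the adjusted p was under 0.05, with a bar at the median. The receptor signalling genes (median 2.77) lay near the macrophage markers (median 2.82), and the fibroblast markers (median -1.44) lay below 0.

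Markers of other immune cells were distributed as follows, where 22.7% of all genes tested were called higher and 16.7% lower. Of 8 plasma cell markers, 6 were tested, 5 were higher and 1 lower (median log2 fold change 2.75). By adjusted p, the first 4 called higher were *Prdm1* (2.46), *Irf4* (4.12), *Jchain* (3.80) and *Xbp1* (0.88), whereas *Mzb1* had 6, 12, 7 and 8 counts and *Tnfrsf17* had 3, 4, 10 and 12. Their summed level was 345 to 388 CPM in SYK WT and 349 to 389 CPM in SYK KO libraries, most of it *Sdc1* and *Xbp1*, and *Sdc1*, singled out after its values were seen, was the gene called lower (-0.70). Of 8 markers of plasmacytoid dendritic cells, 4 were tested, 3 were higher (*Lair1*, *Cox6a2* and *Ly6d*) and 0 lower. The defining gene *Siglech* had 10, 2, 8 and 8 counts. The summed level of the 8 dendritic cell markers was 505 to 522 CPM and 384 to 515 CPM, most of it *Tcf4*, whose log2 fold change was -0.33. *Ccr9* had 9, 9, 10 and 6 counts and *Pacsin1* had 1, 19, 6 and 8. Of 10 T cell markers, all tested, 6 were higher and 0 lower (summed 11.0 to 19.8 CPM and 57.3 to 102 CPM). The T cell markers called higher included *Cd28* (3.83), *Cd4* (2.69), which macrophages can also express, and *Il7r* (3.0). *Lck* (0.17) and *Trac* (1.64) did not pass. *Cd3e* was also called, with 2, 1, 30 and 41 counts, and was at least 16.0-fold higher against a floor of 3 counts. Of the genes called higher, 3 of 5, 2 of 3 and 4 of 6 in the plasma cell, dendritic cell and T cell lists passed the filter only through the SYK KO libraries. These included *Irf4*, *Jchain*, *Cox6a2*, *Ly6d*, *Cd28* and *Cd3e*. Scaled to the macrophage markers or the pan-leukocyte genes, 0 genes of each list were higher and 2, 1 and 3 lower. The share of all genes called lower was 86.5% and 90.4% under these scalings. No marker of these 3 lists was at 0 in all libraries, although *Cd247* and *Cd8a* were at 0 in M10, *Klk1* in M9 and M10 and *Cox6a2* in M7. The part of these cells in the results was not tested.

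The direction of most of the 9 genes depended on the scaling. Scaled to the 10 macrophage markers, the median of all tested genes moved to -2.72 on the log2 scale, and 0 of the 6 tested B cell genes passed, also at an unadjusted p under 0.05, while 0.808% of all genes were called higher and 86.5% lower. *Cd79b* had a log2 fold change of 1.37 (edgeR adjusted p = 0.186) and *Cd79a* -1.63 (edgeR adjusted p = 0.153). Scaled to 6 pan-leukocyte genes, the median of all genes was -3.17, *Cd79b* was at 0.90 (edgeR adjusted p = 0.288), and *Cd79a* was called lower at -2.09 (edgeR adjusted p = 0.0402), where 90.4% of all genes were called lower and 0.565% higher. *Pou2f2* was called higher under both scalings, at 2.12 (edgeR adjusted p = 0.000381) and 1.64 (edgeR adjusted p = 0.00235), and *Ebf1* lower under both, at -3.81 and -4.25.

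**Figure D4:**
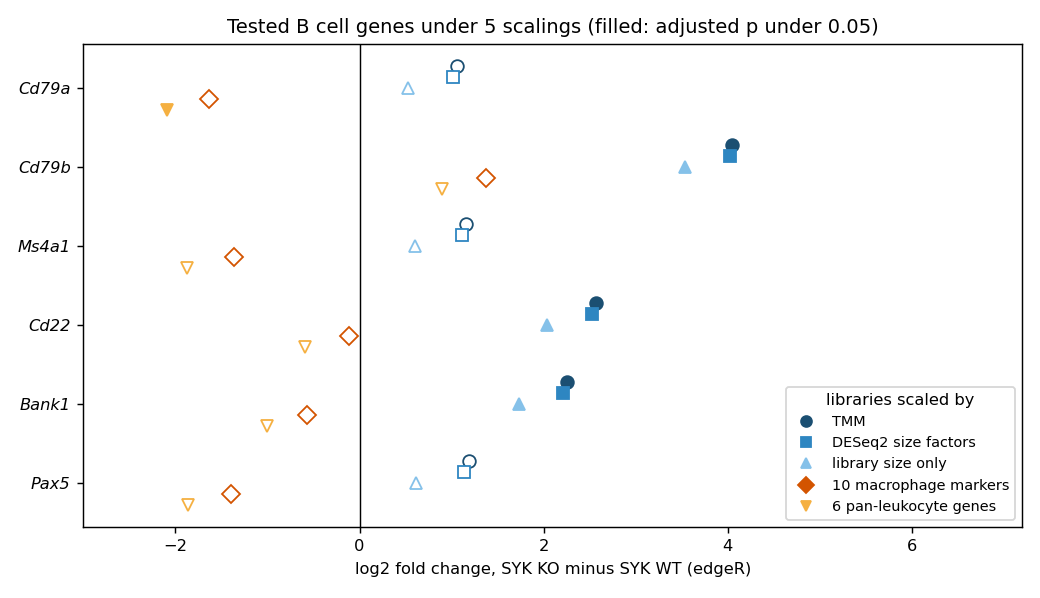
The horizontal axis is the log2 fold change of SYK KO minus SYK WT for the 6 tested B cell genes under 5 scalings of the libraries, filled where the adjusted p was under 0.05. *Cd79b* was above 0 under all 5, whereas *Cd79a*, *Ms4a1*, *Cd22*, *Bank1* and *Pax5* were above 0 under the first 3 and below 0 when scaled to macrophage markers or pan-leukocyte genes.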

How the data were processed

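Per the study's methods and the submitters' processing notes, the authors used a bcbio pipeline with STAR (2.6.1d), Salmon (1.4.0) and the mm10 genome. The deposited values are whole-number counts per Ensembl gene, not normalized. How Salmon's estimates became whole numbers and whether counting used strand are not given in the sources used here. Symbols and positions came from GENCODE M21 (GRCm38), which matched 54495 of 54532 genes.

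Counts were filtered with filterByExpr, normalized by TMM (factors 1.22, 1.19, 0.876 and 0.787 for M7 to M10) and compared by edgeR 4.0.16 (glmQLFit and glmQLFTest, R 4.3.3) over all 16451 genes, with p-values adjusted by Benjamini-Hochberg and called under 0.05. Libraries of one group differed by more than sampling noise (chi-square per degree of freedom 50.6 and 168). p-values measure the spread between these libraries, which may be technical. DESeq2 1.42.0 was an alternative, and edgeR was tested on simulated data. Intervals and floors (3 counts) cover counting error only.

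The 9 genes and the other lists were chosen with earlier results of these data known. Every one of the 9 is named, and from each other list described up to 4 called genes with the smallest adjusted p and up to 4 others with the most counts. A further gene that the rule names is not reported here, and of the macrophage, pan-leukocyte and fibroblast lists only counts and sums are given.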

Additional observations from a re-analysis of the deposited data

How the results depend on the processing

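Scaling decided most of the directions, and the cause was not tested. Scaled to the macrophage markers, 0 of the 9 B cell genes were called higher and 0 lower, and the log2 fold changes were -1.63 for *Cd79a*, 1.37 for *Cd79b* (adjusted p = 0.186), -1.36 for *Ms4a1*, -0.11 for *Cd22*, -0.57 for *Bank1*, -1.40 for *Pax5* and 0.05 for *Syk* (adjusted p = 0.925). Scaled to the pan-leukocyte genes, 0 were called higher and 1 lower, at -2.09, 0.90 (adjusted p = 0.288), -1.87, -0.59, -1.0, -1.86 and -0.39 in the same order. The other B cell genes called higher and lower were 1 and 2 under both of these scalings and 3 and 2 with library size only. Library size only moved the median of all genes to -0.52, with 1677 of 16451 genes called higher and 5411 lower. With all genes that had at least 1 count, 1 of the other B cell genes was lower. In that fit 4174 of 26596 genes were called higher and 3376 lower. Under the macrophage and pan-leukocyte scalings, the receptor signalling genes were 1 higher and 9 lower, and 0 higher and 9 lower. Of all genes tested, 0.808% and 0.565% were called higher under these scalings and 86.5% and 90.4% lower. Without each library in turn, the log2 fold change of *Pax5* ran from -1.31 to 1.99 and that of *Bank1* from 1.76 to 2.57, and 2 to 4 of the 9 genes were called higher (4 without M9, 2 without M7 or M8) and 0 lower, 3 to 7 other B cell genes were higher and 0 to 2 lower (3 higher without M7 or M8, 2 lower without M10), and 14 to 19 receptor signalling genes were higher and 0 to 1 lower (1 without M9). No other alternative moved a call of those of the 9 genes that it tested (DESeq2 size factors, the Wald test, the other filters, leaving out mitochondrial and rRNA-like genes, or an adjusted p under 0.1). With at least 10 counts in every library, *Cd79b*, *Ms4a1* and *Pax5* were not tested, so the call of *Cd79b* was lost and 2 of the 9 genes were called higher. No paired analysis was possible because the labels give the groups no shared replicate numbers. Counts under about 30 in all libraries limit *Cd79a*, *Ms4a1*, *Cr2*, *Pax5* and *Pou2af1*.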
